A study of Rattus norvegicus with 12 samples.

Results

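The comparison described here set left ventricular tissue taken 7 days after a coronary ligation against tissue taken 1 day after it. Its members are the arrays whose labels give day 1 or day 7, which are 4 of the 12 arrays of the series: 2 of day 1 and 2 of day 7. All rats were male Sprague-Dawley rats injected at an age of 8 weeks and operated on 10 weeks later, when the left anterior descending coronary artery was tied without reperfusion. The diabetic rats had received streptozotocin, a toxin of the insulin-producing cells of the pancreas, at 65 mg/kg, and the non-diabetic rats the citrate buffer alone; by the labels, blood sugar was left uncontrolled after streptozotocin. Rats were 18 weeks old on the day 1 arrays and 19 weeks on those of day 7. On the arrays used for comparison of levels they were 18 weeks (sham), 20 weeks (day 14) and 22 weeks (day 28), and on day 56 the labels give 26 weeks for the diabetic and 22 weeks for the non-diabetic array, which do not match. The tissue was the remote zone of the left ventricular free wall, which is myocardium away from the infarct. Each array held the pooled RNA of 3 rats, so a condition at a time point had 1 sample, the animals behind day 1 and day 7 were different, and p-values measure the spread between these pooled arrays alone. With 2 arrays a day, the smallest exact permutation p of a single gene is 0.333 (two-sided), and the p-values printed come from a model fitted across all probe sets. The other 8 arrays (a sham-operated pair, whose labels give no time between operation and sacrifice, and pairs of days 14, 28 and 56) served to estimate the spread between the conditions and for the levels set beside each gene.

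After a coronary occlusion the heart passes through an inflammatory phase, in which dying tissue and stretched muscle induce chemokines, cytokines and acute phase proteins and draw in neutrophils and then monocytes. It is followed by a proliferative phase, in which fibroblasts divide, take on an activated state and lay down fibrillar collagen, proteoglycans and matricellular proteins. Muscle far from the infarct is not spared, since it bears a changed load and is reached by the same circulating signals, and interstitial collagen there is a known part of ventricular remodelling.

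The values were probe set intensities with no unit in molecules, used as log2 of the intensity plus 16. Of 31042 probe sets that are no controls, 18625 lay above a filter on low values, and they stood for 10623 genes. The median intensity was 31.9 on the non-diabetic and 29.7 on the diabetic day 1 array, and 34.7 and 32.8 on their day 7 counterparts. The 3' minus 5' difference of the beta-actin control probe sets, a measure of RNA and labelling quality, was 0.98 to 1.00 (log2) on these 4 arrays and 0.368 to 0.589 on the other 8, so the levels of other time points set beside the results differ in this measure too. Its part in those levels was not tested. Cardiac muscle genes were abundant on all 4 arrays, with the 18 adult contractile genes at 9.61 or more and myoglobin (Mb) between 12.54 and 12.76.

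The test called 93 probe sets between day 7 and day 1 (limma, adjusted p below 0.05 after Benjamini-Hochberg over 18625), of which 75 were higher at day 7 (0.403% of those tested) and 18 were lower (0.0966%). As genes, 46 rose (0.433% of 10623) and 14 fell (0.132%), and 22 of the called probe sets had no gene symbol of their own. Each of the 60 genes moved the same way in the diabetic and the non-diabetic pair, and in none did the day 1 and day 7 values overlap. Of all genes, 58.8% moved the same way in both pairs. The 60 were called on the mean change of these same pairs, so their agreement describes them and gives no support. The smallest change among them was 1.01 on the log2 scale, and 1623 probe sets had an unadjusted p below 0.05. For all genes, both day 7 arrays lay above both day 1 arrays in 27.9% and below them in 19.1%, and the median change was 0.05. With the array medians set equal the calls were 68 higher and 29 lower, so the share of higher calls went from 80.6% to 70.1%. With only the 4 arrays of day 1 and day 7 in the fit, which leaves 1 residual degree of freedom, 31 of the 33 named genes that passed still did, and 292 probe sets were called. There were 18 calls without the diabetic day 7 array, 21 without the diabetic day 1 array, 37 without the non-diabetic day 7 array and 123 without the non-diabetic day 1 array, of which 14, 18, 32 and 50 were among the 93. Without the day 28 pair 377 were called, all 93 included, and without the day 56 pair 49. Of the 33 named genes, Ccl20, Ankrd2, Gal, Fosl1, LOC102552995 and Kcnv2 passed whichever of the 4 arrays was left out. Those fits tested the same 18625 probe sets, so the array left out still counted in the filter. The means of Ccl20 and Ankrd2 lay above the filter's level of 5.20 through their day 1 values. Outside day 1, Ccl20 was at 5.61 or less and Ankrd2 at 4.98 or less. Cxcl1 also lay above the filter's level only through its day 1 values, and C1qtnf3 and Col11a1 only through their day 7 values. In the fit without a filter, no named gene lost its call. Of the 33, 7 passed without the diabetic day 7 array, 9 without the diabetic day 1 array, 15 without the non-diabetic day 7 array and 21 without the non-diabetic day 1 array.

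**Figure D1:**
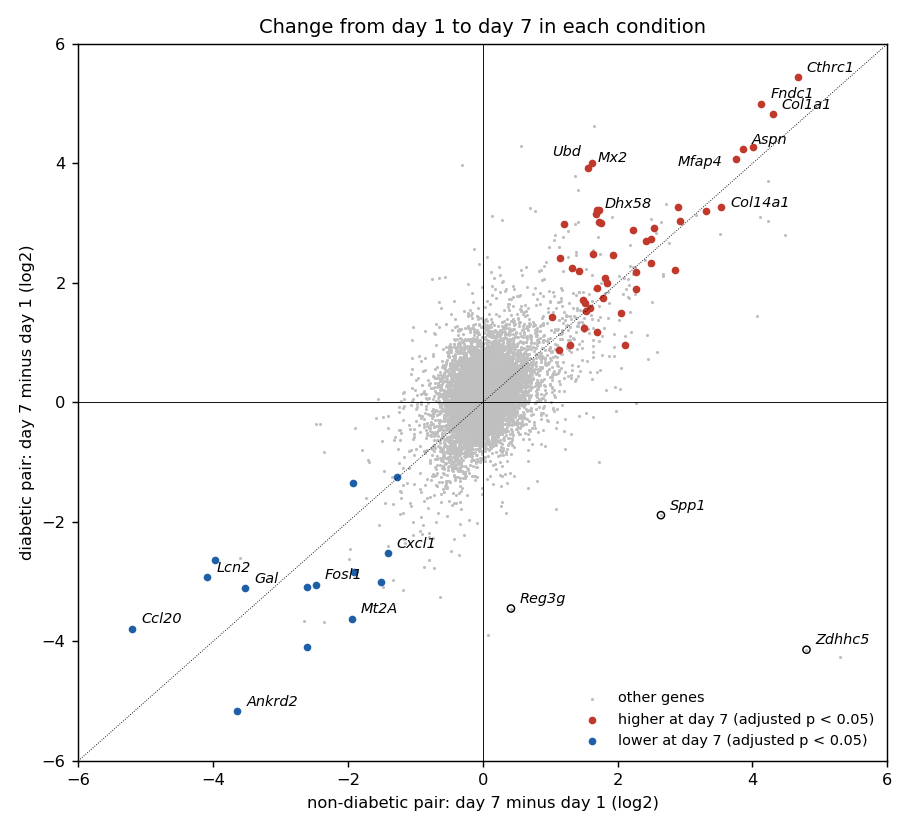
Change from day 1 to day 7 on log2(intensity + 16) in the non-diabetic pair (x axis) and the diabetic pair (y axis), 1 point per gene; red and blue genes passed the test over both pairs and the dotted line marks equal change. The 46 red and 14 blue genes lie in the quadrants where both pairs moved the same way, and Zdhhc5, Reg3g and Spp1 (open circles) lie where they did not.

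The genes that fell included 3 chemokines and 2 acute phase genes, and the chemokine Ccl20 had the largest change of them on this scale. Ccl20, the chemokine that attracts cells carrying CCR6, stood at 9.98 (non-diabetic) and 9.01 (diabetic) on day 1 and at 4.78 and 5.21 on day 7. Both day 7 values lay close to the sham arrays, at 4.29 and 4.33. The mean change was -4.49 ± 0.34 (log2, SE of the fit), with an adjusted p of 0.00014. Levels near the sham values lie close to the floor that the offset sets (log2 of 16 is 4.00), so the size of such a change depends on the offset: it was -3.27 for Ccl20 with an offset of 64. Cxcl1, a neutrophil attractant, went from 6.98 and 8.16 to 5.57 and 5.63, and fell by 1.97 ± 0.25 (adjusted p = 0.0054); without the diabetic day 1 or the diabetic day 7 array its adjusted p was 0.051 and 0.093. Ccl27, a chemokine of epithelia outside the list described next, fell by 2.26 ± 0.42 (adjusted p = 0.047), a call that was kept without the non-diabetic day 1 array alone (adjusted p of 0.24 to 0.38 without each of the others).

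The list of chemokines and early cytokines had 31 members on the array, of which 21 passed the filter. Among these, counted by 1 probe set per gene, 2 fell (0.132% of all genes did), none rose and the median change was 0.00. The 2 were Ccl20 and Cxcl1, which passed the filter only through their day 1 values. Both day 7 arrays were below both day 1 arrays in 8 of the 21 and above them in 5, against 19.1% and 27.9% of all genes. The monocyte attractants Ccl2 and Ccl7 had differences of -1.75 ± 0.66 and -1.82 ± 0.42 and Il1b of -1.40 ± 0.27 (adjusted p = 0.41, 0.10 and 0.052). The interferon-induced chemokines Cxcl9 and Cxcl10 ran the other way, at 1.67 ± 0.37 and 1.59 ± 0.42 (adjusted p = 0.093 and 0.17), which did not pass, while a second probe set of Cxcl9 rose by 1.55 ± 0.27 (adjusted p = 0.038). Il6 and Cxcl2 lay under the filter; in the fit without it, in which 0.403% of probe sets were higher and 0.087% lower, Il6 fell by 1.63 ± 0.20 (adjusted p = 0.0028) and Cxcl2 by 2.29 ± 0.42 (adjusted p = 0.036). Il6 stood at 5.72 and 6.26 on day 1 and at 4.13 and 4.59 on day 7.

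Markers of neutrophils were measured beside these genes, and none of the 6 above the filter passed the test. In the fit without a filter 2 of the 11 on the array fell (0.087% of all probe sets tested) and none rose. Both day 7 arrays were lower in 6 of those 11 and higher in 1. For all genes these shares were computed above the filter alone (19.1% lower and 27.9% higher). The summed intensity of the 6 neutrophil markers that passed the filter was 1043 and 2238 on day 1 and 369.5 and 484.3 on day 7. It was 488.3 and 357.7 on the sham arrays. On day 28 it was 1392 on the non-diabetic array, above the non-diabetic day 1 array, and 258.8 on the diabetic array. In 5 of the 6 both day 7 arrays were lower (19.1% of all genes) and in 1, Fcgr3a, both were higher (1.93); S100a8, a calcium-binding protein of neutrophils, stood at 7.98 and 9.36 on day 1 and 5.62 and 5.68 on day 7 (-3.02 ± 0.61, adjusted p = 0.063). The granule genes Camp and Np4 lay between 4.30 and 4.96 on all 4 arrays, near the lowest value the scale allows. In pooled tissue, fewer cells of a type and less RNA per cell cannot be told apart, and the part of neutrophils in the fall of the chemokines was not tested.

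The promoter of Cxcl1 is shown because the gene is the called chemokine whose window held the NF-kappaB motif searched for. The bases are the 120 before the annotated start, from RefSeq's rat assembly GRCr8 (chr14:17479322-17479441, minus strand), with the motif (GGGA and TTTCC with any 1 base between them) in capitals, beginning 84 bases before the start.
Cxcl1: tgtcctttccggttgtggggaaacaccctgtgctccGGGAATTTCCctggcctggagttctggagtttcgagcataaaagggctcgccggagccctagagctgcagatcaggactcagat
That motif was found on either strand in 3 of the 23 promoter windows of the chemokine and early cytokine list (13.0%), against 0.314% of all 33469 windows of 250 bases before a start. A match describes these letters and is not shown to be a site.

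Among secreted defence proteins, 2 fell beside the chemokines. Lcn2, the iron-carrier-binding lipocalin of neutrophils and stressed epithelia, stood at 10.66 and 9.18 on day 1, 6.57 and 6.26 on day 7 and 6.56 or less on the sham arrays (-3.51 ± 0.45, adjusted p = 0.0058). Orm1, an acute phase glycoprotein, went from 9.29 and 8.36 to 5.32 and 5.72 (-3.31 ± 0.58, adjusted p = 0.038). Both groups of values were well apart, and the non-diabetic day 1 array was the higher of the day 1 arrays for Lcn2, Orm1 and Ccl20. Of 12 members of the acute phase list that passed the filter, of 18 on the array, these 2 fell (0.132% of all genes did). None rose, and the median change was -0.98. Both day 7 arrays were lower in 6 of the 12 and higher in 2, against 19.1% and 27.9% of all genes. Orm1 passed in none of the fits without 1 array (adjusted p of 0.051 to 0.34), and Lcn2 did not pass without the non-diabetic or the diabetic day 7 array (0.075 and 0.055).

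The other named genes that fell were of several kinds. Ankrd2, a titin-associated protein induced by stretch, stood at 8.46 and 9.77 on day 1 and at 4.82 and 4.60 on day 7, where the sham arrays had 4.88 and 4.73 (-4.41 ± 0.37, adjusted p = 0.00026, and -3.03 with an offset of 64). Gal, the neuropeptide galanin, stood at 9.14 and 9.27 on day 1 and 5.61 and 6.16 on day 7 (-3.32 ± 0.24, adjusted p = 1e-04). Fosl1, the AP-1 subunit Fra-1, went from 6.91 and 7.86 to 4.43 and 4.80 (-2.77 ± 0.23, adjusted p = 0.00026). On the 10 arrays of other time points and day 7, no value of Ankrd2 was above 4.98 and none of Gal above 6.52.

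Mt2A, a metal-binding metallothionein, went from 10.27 and 11.46 to 8.32 and 7.84 and fell by 2.78 ± 0.45 (adjusted p = 0.026). Slc16a3, the lactate exporter MCT4, fell by 2.38 ± 0.27 (adjusted p = 0.0028) and Tgm1, a transglutaminase, fell by 3.35 ± 0.51 (adjusted p = 0.019). For all 3 the diabetic day 1 array was the highest of the 12: Tgm1 stood at 8.97 and 10.62 on day 1 and at 6.37 and 6.52 on day 7. Without the diabetic day 1 array the adjusted p was 0.18 for Tgm1 and 0.26 for Mt2A, and without the diabetic day 7 array it was 0.18, 0.31 and, for Slc16a3, 0.055; without the non-diabetic day 7 array it was 0.13 for Tgm1 and 0.12 for Mt2A. LOC102552995, an uncharacterised gene, differed in pattern: it stood at 6.69 and 7.14 on day 1 and 4.08 and 4.05 on day 7, while the other 8 arrays lay between 7.85 and 9.05.

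Of the genes of stretch, hypertrophy and the fetal programme, 18 of 19 on the array passed the filter. Among the 18, Ankrd2 and Fhl1 fell (0.132% of all genes did) and none rose. Both day 7 arrays were lower in 12 of the 18 and higher in 0, against 19.1% and 27.9% of all genes. Fhl1, a LIM protein of the sarcomere, was higher on both day 1 arrays than on the other 10 (-1.26 ± 0.23, adjusted p = 0.039, and 0.11 to 0.40 without each array in turn). The natriuretic peptide gene Nppb, a marker of wall stress, stood at 12.30 and 12.34 on day 1 and 11.69 and 11.82 on day 7 (-0.56 ± 0.21, adjusted p = 0.41). Nppa, Myh7 and Ankrd1, other genes of that programme, had differences of 0.18 ± 0.31, 0.05 ± 0.16 and -0.24 ± 0.21, and none passed. The signs of Nppa and Myh7 depended on the setting.

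Lists of growth and protein folding were lower on day 7 by small amounts. In the ribosome biogenesis list 17 of 19 genes had both day 7 arrays below both day 1 arrays (19.1% of all genes did), with a median change of -0.71, and none passed the test. Nop56, a box C/D ribonucleoprotein, stood at 8.54 and 9.16 on day 1, 8.20 and 8.07 on day 7 and 7.63 and 7.72 on the sham arrays. In the list of heat shock, unfolded protein and secretory genes the same held for 17 of 26, with a median of -0.44 and no call; Hspb1, a small heat shock protein, had a difference of -1.51 ± 0.34 (adjusted p = 0.093). The median was further below 0 in the diabetic pair than in the non-diabetic pair in both lists, at -0.96 against -0.33 for ribosome biogenesis and -0.71 against -0.30 for protein folding; that difference was not tested. Of 24 immediate early genes, the transcription factors and phosphatases induced within minutes of a stimulus, Fosl1 alone passed. Both day 7 arrays were lower in 13 of the 24, against 19.1% of all genes, and the median was -0.42.

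Genes of the fibrillar matrix were at the head of those that rose. Col1a1, a chain of type I collagen, stood at 7.41 and 6.96 on day 1 and at 11.71 and 11.78 on day 7, where the sham arrays had 8.17 and 7.85. It rose by 4.56 ± 0.60 (23.6-fold, adjusted p = 0.0066), and its second probe set rose by 4.00. Col1a2, the partner chain, stood at 8.75 and 8.89 on day 1 and 12.05 and 12.09 on day 7 (3.25 ± 0.49, adjusted p = 0.018). In both genes the gap between the days was several times the gap between the conditions. Col14a1, which binds to collagen fibrils, rose by 3.40 ± 0.44 (adjusted p = 0.006) and Col11a1, a chain that nucleates fibrils, by 2.37 ± 0.41 (adjusted p = 0.034).

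All 17 members of the fibrillar collagen list passed the filter, Col11a1 only through its day 7 values. Of them 5 rose (0.433% of all genes did), the fifth being Col5a1 (2.23 ± 0.33, adjusted p = 0.016), and none fell. Both day 7 arrays were higher in 15 of 17, against 27.9% of all genes, and the median change was 1.69 (1.72 without diabetes and 1.83 with it). Their summed intensity was 3348 and 3918 on day 1, 20700 and 21090 on day 7 and 4624 and 3402 on the sham arrays. Col3a1, the chain of type III collagen, stood at 9.70 and 10.22 on day 1 and 12.38 and 12.34 on day 7 but did not pass (2.40 ± 0.52, adjusted p = 0.078). Without the diabetic day 1 array, or without the diabetic day 7 array, none of the 17 passed, although the medians were 2.08 and 1.63; for Col1a1 the adjusted p was then 0.10 and 0.095. Without the day 28 pair 12 passed, in a fit that called 300 of 18625 probe sets higher. Col1a1 stood at 11.05 and 8.60 on that pair.

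Cthrc1, a secreted protein of activated fibroblasts, stood at 5.10 and 5.13 on day 1, which is under the filter's level of 5.20, and at 9.77 and 10.57 on day 7 (5.06 ± 0.94, and 3.86 to 5.85 over the offsets tried). Its adjusted p was 0.048, and 0.11 to 0.44 without each of the 4 arrays in turn. Its sham values were 4.40 and 4.45, and of the later arrays the highest were the diabetic array of day 14 at 7.89 and the non-diabetic array of day 28 at 7.61. Of the matricellular list, 18 of 19 members on the array passed the filter and Cthrc1 alone was called. Postn, the matricellular protein periostin, went from 7.33 and 8.90 to 11.80 and 11.70 (3.64 ± 1.02, adjusted p = 0.20). Tnc and Fn1, tenascin C and fibronectin, had differences of 1.72 ± 0.54 and 0.68 ± 0.76 and did not pass. Fn1 stood at 9.06 and 10.51 on day 1 and 10.58 and 10.34 on day 7, so its groups overlapped.

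Some of the small leucine-rich proteoglycans and elastic fibre proteins rose beside the collagens. Aspn, asporin, stood at 5.80 and 5.79 on day 1, below the sham arrays at 8.01 and 8.12, and at 9.66 and 10.03 on day 7 (4.05 ± 0.47, adjusted p = 0.0031). Mfap4, a microfibril-associated protein, went from 6.97 and 6.80 to 10.72 and 10.88 (3.92 ± 0.45, adjusted p = 0.0028). Lum, the collagen-binding proteoglycan lumican, went from 8.29 and 8.08 to 11.22 and 11.11, with 10.21 and 9.76 on the sham arrays (2.98 ± 0.50, adjusted p = 0.03). For these 3 genes, unlike Col1a2 and Cthrc1, each day 1 value was lower than each sham value by more than 1 unit. Of 24 members that passed the filter, of 25 on the array, these 3 rose (0.433% of all genes did) and none fell. Both day 7 arrays were higher in 19 of the 24, against 27.9% of all genes. The median change was 1.06, and changes ran from -0.50 to 4.05. A second probe set of Fbln1, the elastic fibre protein fibulin-1, was also called (1.47 ± 0.28, adjusted p = 0.049).

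Other secreted or surface proteins of connective tissue were among the 12 largest rises. Fndc1, a fibronectin type III domain protein, stood at 5.13 and 4.73 on day 1 and 9.26 and 9.73 on day 7 (4.57 ± 0.54, adjusted p = 0.0032). C1qtnf3, from the C1q and tumour necrosis factor superfamily, was near the bottom of the scale on the sham and day 1 arrays, at 4.14 to 4.27, and at 8.20 and 8.41 on day 7 (4.14 ± 0.67, adjusted p = 0.026). Islr, a leucine-rich repeat protein of mesenchymal cells, rose by 3.08 ± 0.54 (adjusted p = 0.037). C1qtnf3 and Islr passed in none of the fits without 1 array, and neither did Lum, Col1a2, Fap, Thy1 or Sparc. Fndc1 did not pass without the diabetic day 1 array (adjusted p = 0.069) or the diabetic day 7 array (0.056), nor Aspn without the diabetic day 1 array (0.066), Mfap4 without the diabetic day 7 array (0.056) and Col14a1 without 3 of the 4 arrays.

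Of 16 markers of fibroblasts and myofibroblasts, 2 rose beside the matrix genes (0.433% of all genes did). Fap, a membrane protease of activated fibroblasts, stood at 5.72 and 5.67 on day 1 and 8.15 and 8.38 on day 7 (2.57 ± 0.43, adjusted p = 0.031). Thy1, a surface glycoprotein of fibroblasts and T cells, went from 4.56 and 4.17 to 7.41 and 6.38 (2.53 ± 0.43, adjusted p = 0.034). Neither passed when any 1 of the 4 arrays was left out, and no other marker did. Both day 7 arrays were higher in 9 of the 16, against 27.9% of all genes, and the summed intensity of the 16 was 4784 and 5822 on day 1 and 8425 and 7791 on day 7. The smooth muscle actin gene Acta2, the usual marker of the contractile myofibroblast, overlapped between the days, at 7.99 and 7.51 against 8.02 and 7.93 (0.23 ± 0.33, adjusted p = 0.97). The part of fibroblast number in the rise of the matrix genes was not tested. Sparc, a collagen-binding glycoprotein kept here in the basement membrane list, rose by 1.23 ± 0.22 (adjusted p = 0.043), and was the only one of 16 genes of that list to pass.

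Among ligands of the TGF-beta family, growth factors that drive matrix synthesis, the 3 isoforms did not move alike. Tgfb1 overlapped between the days (0.19 ± 0.24), Tgfb2 went from 8.18 and 9.17 to 6.99 and 7.32 (-1.52 ± 0.39, adjusted p = 0.16) and Tgfb3 from 7.16 and 7.03 to 8.46 and 8.30 (1.28 ± 0.51, adjusted p = 0.46). None of the 24 genes of this list that passed the filter was called. Timp1, the protease inhibitor, was highest on day 1, at 10.49 and 11.36 against 9.61 and 9.31 on day 7 (-1.47 ± 0.76, adjusted p = 0.68), and Lox, which crosslinks collagen, stood at 7.60 and 8.51 against 9.37 and 9.61 (1.44 ± 0.76, adjusted p = 0.69). None of 19 proteases and inhibitors and none of 18 genes of collagen processing passed.

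**Figure D2:**
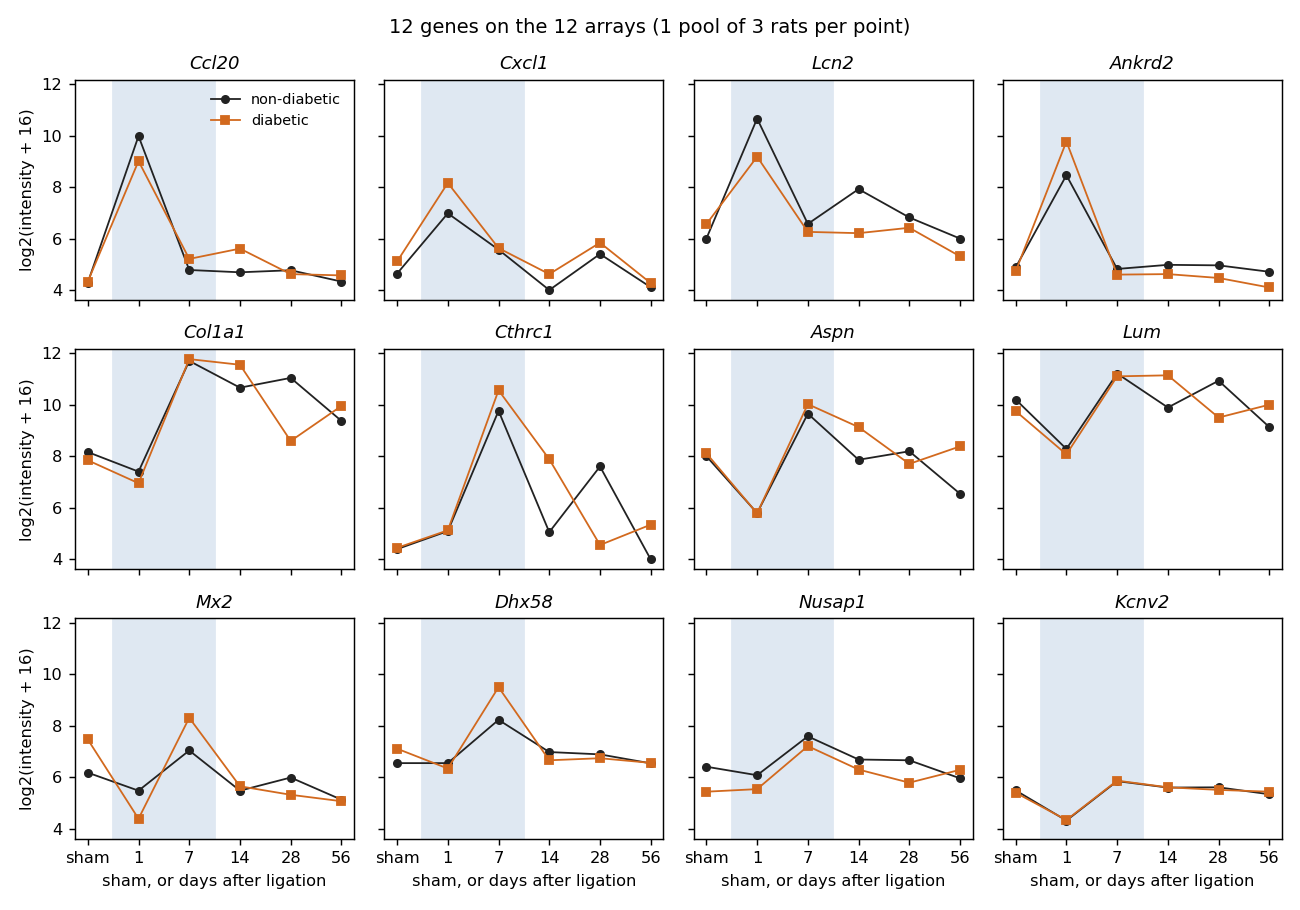
Level of 12 genes, log2(intensity + 16), on the sham arrays and at days 1, 7, 14, 28 and 56 after ligation in non-diabetic (black) and diabetic (orange) rats, 1 pool of 3 rats per point; the shaded band holds the days compared. Ccl20 and Ankrd2 peak on day 1 in both conditions, Cthrc1 and Dhx58 peak on day 7, and Aspn, Lum and Kcnv2 are lowest on day 1.

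Of 28 genes of the response to interferon, the antiviral cytokine system, 3 rose between the days (0.433% of all genes did). Mx2, an antiviral dynamin-like GTPase, stood at 5.48 and 4.39 on day 1 and 7.04 and 8.31 on day 7 (2.75 ± 0.50, adjusted p = 0.043). Dhx58, an RNA sensor of the RIG-I family, went from 6.55 and 6.34 to 8.23 and 9.50 (2.42 ± 0.36, adjusted p = 0.015), and Zbp1, a nucleic acid sensor, from 4.86 and 4.76 to 6.44 and 6.35 (1.59 ± 0.20, adjusted p = 0.006). The 28 are the members that passed the filter, of 29 on the array, and none fell. Both day 7 arrays were higher in 25 of 28, against 27.9% of all genes, and the median change was 1.37. Ubd, a ubiquitin-like protein induced by interferon-gamma and outside the list, stood at 5.52 and 4.51 on day 1 and 7.14 and 8.51 on day 7 (2.81 ± 0.51, adjusted p = 0.044).

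The diabetic pair showed the larger change in 27 of the 28 members, with a median of 1.78 against 0.76 in the non-diabetic pair; over all genes the change was the higher in the diabetic pair in 59.1%. Mx1 differed by 1.65 and 4.62 and Isg15, a ubiquitin-like modifier, by 1.63 and 3.98 between the days in the non-diabetic and diabetic pair, and no member passed the test of the difference. The summed intensity of the 28 genes was 9564 and 7444 on day 1, 13850 and 20260 on day 7 and 10270 and 12700 on the sham arrays, so the diabetic array was the lower on day 1 and the higher on day 7 and sham. Without the diabetic day 1 array, or without the diabetic day 7 array, none of the 28 passed, with medians of 1.18 and 0.84; for Mx2 the adjusted p was then 0.50 and 0.47, for Dhx58 0.24 and 0.17, for Zbp1 0.10 and 0.084 and for Ubd 0.44 and 0.47. Without the day 28 pair 11 of the 28 passed, in a fit that called 300 of 18625 probe sets higher. Ubd and Zbp1 also did not pass without the non-diabetic day 7 array (0.10 and 0.074). In the fit of the 4 arrays alone, Mx2 and Ubd had an adjusted p of 0.058 and 0.055.

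**Figure D3:**
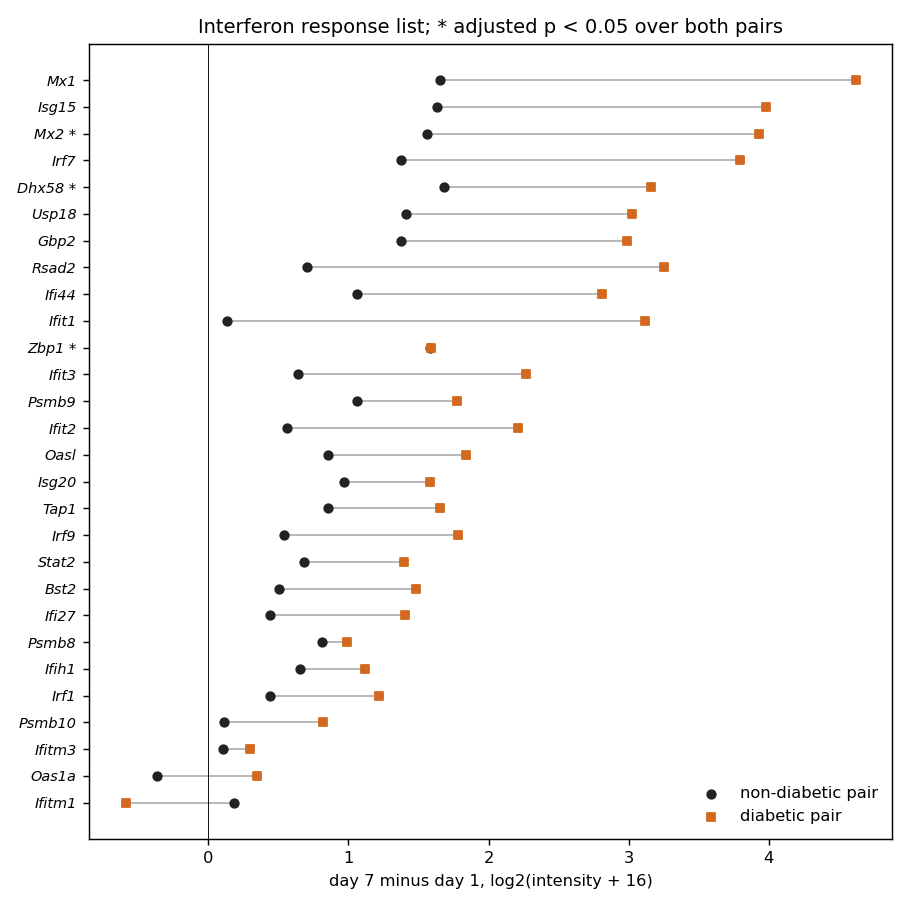
Change from day 1 to day 7, log2(intensity + 16), of the 28 interferon response genes in the non-diabetic pair (black circles) and the diabetic pair (orange squares), ordered by their mean; an asterisk marks genes that passed the test over both pairs. The square lies to the right of the circle in 27 genes, Ifitm1 being the exception.

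Other called genes known to respond to interferon lay outside the list and were picked out after their values were seen: Ddx60, Gbp4, Herc6, Ifgga2l1, Irgm2, Rnf213 and Slfn9. Ddx60, a helicase that aids RNA sensing, stood at 4.72 and 4.30 on day 1 and 6.95 and 7.18 on day 7 (2.56 ± 0.47, adjusted p = 0.047). Gbp4, a guanylate-binding protein, went from 4.85 and 4.57 to 6.60 and 7.57 (2.38 ± 0.35, adjusted p = 0.015). Irgm2, an immunity-related GTPase, went from 7.48 and 7.13 to 8.63 and 9.55 (1.79 ± 0.34, adjusted p = 0.049). The calls of Ddx60 and Irgm2 were lost without any 1 of the 4 arrays (adjusted p of 0.078 to 0.50 and 0.056 to 0.58) and that of Gbp4 without either diabetic array (0.25 and 0.21). The promoters of these 3 are printed because each held, in the 120 bases before its annotated start, the interferon-stimulated response element searched for as GAAA, any 2 bases and GAAA, in capitals (GRCr8, RefSeq). The windows are chr16:33208840-33208959 on the minus strand for Ddx60, chr10:42889850-42889969 on the plus strand for Irgm2 and chr2:233978366-233978485 on the plus strand for Gbp4.
Ddx60: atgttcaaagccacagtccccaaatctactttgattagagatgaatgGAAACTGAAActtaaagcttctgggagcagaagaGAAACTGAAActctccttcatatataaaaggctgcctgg
Irgm2: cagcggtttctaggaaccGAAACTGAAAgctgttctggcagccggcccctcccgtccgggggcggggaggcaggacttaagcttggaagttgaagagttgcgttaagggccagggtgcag
Gbp4: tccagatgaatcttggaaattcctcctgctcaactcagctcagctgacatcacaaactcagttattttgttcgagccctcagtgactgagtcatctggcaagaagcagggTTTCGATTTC
In Ddx60 the element occurs at 73 and at 39 bases before the start, in Irgm2 at 102, and in Gbp4 on the opposite strand at 10. Over the interferon list it was present in 17 of 24 windows (70.8%), against 3.41% of all windows; the element was added to the search after the calls were seen.

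Antigen presentation genes lay higher on day 7 without passing. All 8 genes of MHC class II on the array passed the filter, 7 had both day 7 arrays higher (27.9% of all genes did), none was called, and the median change was 1.56. RT1-Ba, a class II alpha chain, stood at 7.38 and 6.83 on day 1, 9.64 and 8.64 on day 7 and 7.92 and 7.28 on the sham arrays (2.03 ± 0.40, adjusted p = 0.06). Of 27 macrophage markers, 14 had both day 7 arrays higher and 5 both lower (27.9% and 19.1% of all genes), none passed, and their summed intensity was 13290 and 16860 on day 1 and 21920 and 17220 on day 7. Trem2, a lipid receptor of macrophages, had a difference of 1.66 ± 0.36 (adjusted p = 0.078), while a second probe set of it rose by 1.96 (adjusted p = 0.038). Cd68, a lysosomal marker of macrophages, had a difference of 0.73 ± 0.47, and Arg1, an enzyme of reparative and early myeloid cells, of -1.22 ± 0.41, neither passing. Of 10 lymphocyte markers none passed, and their sum was 629.9 and 756.1 on day 1 and 1160 and 998.2 on day 7. The part of these cells in the interferon and class II genes was not tested.

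Genes of cell division were hidden in part by the filter. Of 34 members on the array 15 passed it, which keeps probe sets by their mean over all 12 arrays. Among the 15, Nusap1, a spindle protein, rose from 6.08 and 5.54 to 7.59 and 7.21 (1.59 ± 0.29, adjusted p = 0.045, and 0.11 to 0.42 without each array in turn), and Cdk1, the mitotic kinase, went from 5.04 and 5.29 to 7.14 and 6.41 (1.61 ± 0.39, adjusted p = 0.13). In the fit without a filter 8 of the 34 rose (0.403% of all probe sets tested), none fell, and 26 had both day 7 arrays higher. The share of all genes with both day 7 arrays higher was computed above the filter alone (27.9%). Mki67, which encodes the proliferation antigen Ki-67, stood at 4.73 and 4.49 on day 1 and 6.88 and 6.26 on day 7 (1.96 ± 0.26, adjusted p = 0.0053), Bub1, a checkpoint kinase, at 4.96 and 4.95 against 6.47 and 6.12 (1.34 ± 0.16, adjusted p = 0.0028) and Cdkn3, a phosphatase of cyclin-dependent kinases, at 4.75 and 4.85 against 7.67 and 6.63 (2.35 ± 0.42, adjusted p = 0.032). The helicase subunits Mcm2, Mcm3, Mcm5, Mcm6 and Mcm7, the replication clamp Pcna and the cyclin Ccnb1 were measured above the filter, with differences of -0.18 to 0.30 and no call. Which cells held these transcripts cannot be told apart in pooled tissue.

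The promoters of Nusap1 and Cdk1 are printed for the CCAAT box, the element of cell cycle promoters bound by NF-Y, in capitals on either strand (120 bases before the start; chr3:127057175-127057294 and chr20:19265173-19265292, both plus strand, GRCr8, RefSeq).
Nusap1: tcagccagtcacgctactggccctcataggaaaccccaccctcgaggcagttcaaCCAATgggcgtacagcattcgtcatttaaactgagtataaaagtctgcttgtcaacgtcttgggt
Cdk1: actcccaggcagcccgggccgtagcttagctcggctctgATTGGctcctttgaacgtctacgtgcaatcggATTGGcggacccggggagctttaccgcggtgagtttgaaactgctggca
The box begins 65 bases before the start of Nusap1, and lies on the opposite strand at 81 and 49 bases before that of Cdk1. It was present in 22 of the 30 windows of the mitosis list (73.3%), against 34.0% of all windows, and the cell cycle homology region (CHR, searched as TTTGAA) in 12 (40%) against 16.2%.

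Motifs were searched in 7 groups of windows of 250 bases before the start, on both strands. The CArG box, a serum response element, allows A or T at its 6 inner bases and can hold TATAAA; each motif was counted on its own. Of the 12 named genes that rose most, 7 had a promoter in the table, in 8 windows, and none held the NF-kappaB, AP-1 (TGANTCA), CArG or interferon motif, while 2 held CCAAT and 2 TATAAA. All 12 that fell most were in the table: 1 window held the NF-kappaB motif, 3 AP-1 (25% against 6.34% of all windows), 4 TATAAA (33.3% against 12.9%) and 2 CCAAT. Of the 11 windows of fibrillar collagens, 3 held CCAAT (27.3%), 1 AP-1, 1 TATAAA and none the other motifs. No match says only that these letters are not in this window, and 40 of the 55 named genes had an entry; Col1a1 and Cthrc1 were among those without.

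**Figure D4:**
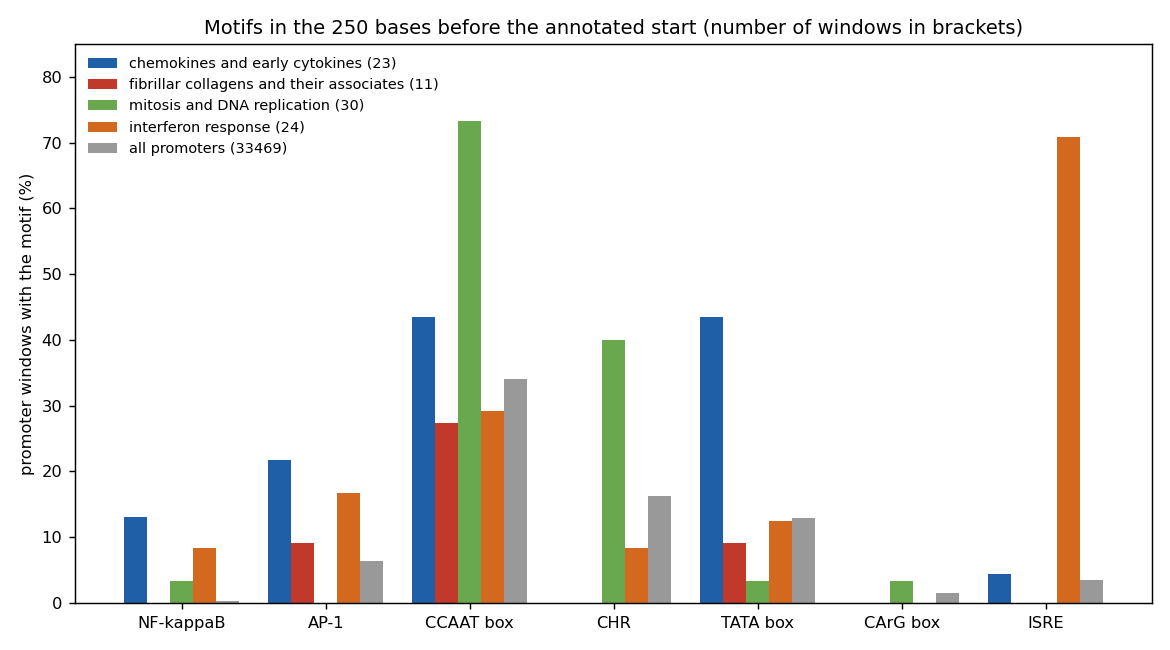
Share of promoter windows (250 bases before the annotated start, y axis in percent) that hold each of 7 motifs on either strand, for 4 gene lists and for all windows of the table; the number of windows is in brackets. The interferon motif stands at 70.8% in the interferon list against 3.41% of all windows, and the CCAAT box at 73.3% in the mitosis list against 34.0%.

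Heart muscle's contractile, mitochondrial and fatty acid genes held no call. None of 18 adult contractile genes, 29 genes of oxidative phosphorylation and the citrate cycle or 33 genes of fatty acid oxidation passed, and the medians were 0.04, 0.05 and -0.01. The fatty acid list's medians lay on opposite sides of 0, at -0.30 in the non-diabetic pair and 0.23 in the diabetic pair, with the higher change in the diabetic pair in 32 of 33 genes. The list's median was 0.38 without the non-diabetic and -0.43 without the diabetic day 1 array. Single members reached -2.31 ± 0.84 (Angptl4, an inhibitor of lipoprotein lipase, adjusted p = 0.39). In the mitochondrial list no gene had non-overlapping days (of all genes, 27.9% were higher and 19.1% lower), and all changes lay between -0.35 and 0.23. All 29 had the higher change in the diabetic pair, as did 59.1% of all genes, with medians of -0.13 and 0.28; their summed intensity was 104800 and 81510 on day 1 and 95880 and 97250 on day 7, so the diabetic day 1 array was the low one. Of 25 genes of glucose uptake and glycolysis, Slc16a3 alone passed. Kcnv2, a modifier subunit of voltage-gated potassium channels, rose from 4.32 and 4.34 to 5.85 and 5.87 (1.53 ± 0.16, adjusted p = 0.0017), and was the only one of 26 calcium handling and channel genes to pass. The sham arrays had Kcnv2 at 5.49 and 5.40, so its day 1 values were the low ones.

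**Figure D5:**
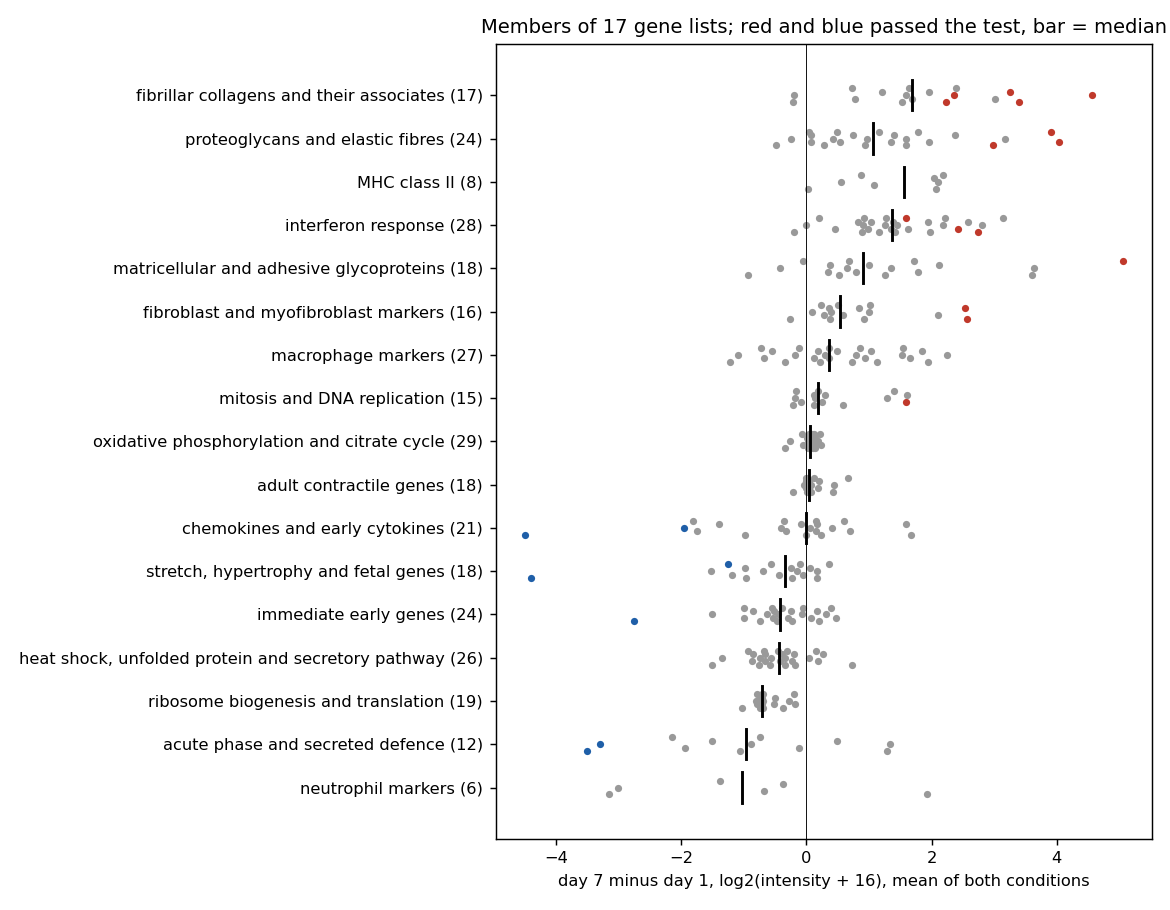
Change from day 1 to day 7, log2(intensity + 16), averaged over both conditions, for the members of 17 gene lists that passed the filter (1 point per gene, number in brackets); red points rose and blue points fell in the test, and the bar is the list's median. Medians run from 1.69 in the fibrillar collagens to -1.04 in the neutrophil markers, and the contractile and mitochondrial lists cluster at 0.

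The called genes were chosen by their day 1 and day 7 values, so the counts here describe them and give no support. Among the 46 genes that rose, the day 7 arrays held the 2 highest values of all 12 arrays in 34, against 9.04% of all genes. Among the 14 that fell, the day 1 arrays did so in 12, against 7.48% of all genes. The exceptions among the named genes that fell were LOC102552995 alone, and among those that rose Col14a1, Islr, Lum, Sparc and Thy1, each of which had a day 14 or day 28 array above a day 7 array, and Ubd and Mx2, in which the diabetic sham array, at 7.24 and 7.47, was above the non-diabetic day 7 array. Col14a1, for example, stood at 10.05 and 10.10 on day 7, 9.64 and 10.12 on day 14 and 10.25 and 8.85 on day 28. Col5a1, Igfbp6 and Irgm2, called genes outside the named set, were exceptions too.

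Some called genes outside the lists were picked out after their values were seen. Fcrl2, an Fc receptor-like gene of the immunoglobulin superfamily, stood at 4.87 and 4.96 on day 1, 7.41 and 7.88 on day 7 and 5.29 and 5.14 on the sham arrays (2.73 ± 0.22, adjusted p = 0.00026). It passed whichever of the 4 arrays was left out, with adjusted p of 0.002 to 0.0073. Itga8, an integrin subunit of mesenchymal cells that binds matrix proteins, stood at 5.79 and 5.57 on day 1 and 7.60 and 7.65 on day 7 (1.95 ± 0.22, adjusted p = 0.0028, and 0.051 and 0.06 without the diabetic day 1 and day 7 array). Kcnj15, an inward rectifier potassium channel, rose by 2.07 ± 0.28 (adjusted p = 0.0088) and Igfbp6, which binds insulin-like growth factor II, by 2.62 ± 0.49 (adjusted p = 0.049). Kcnj15 did not pass without either diabetic array (0.12 and 0.089), nor Igfbp6 without any 1 of the 4 (0.13 to 0.46).

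A second fit asked whether the change from day 1 to day 7 differed between diabetic and non-diabetic rats. It called 5 probe sets of 18625 (0.0268%; limma, 3 residual degrees of freedom), and 415 had an unadjusted p below 0.05. Reg3g, a secreted antibacterial lectin, stood at 6.12 on day 1 and 6.54 on day 7 in non-diabetic rats, and at 8.40 and 4.94 in diabetic rats, a difference of changes, diabetic minus non-diabetic, of -3.87 ± 0.41 (adjusted p = 0.025). The other gene was Zdhhc5, a palmitoyltransferase, whose intensity was 0.00332 on the non-diabetic day 1 array and 0.00236 on the diabetic day 7 array, and 266 to 532 on the other 10. With 2 arrays listed near 0, the size of its difference is set by the offset and no fold change is given. Zdhhc5 was the only call with quantile normalization, without a variance trend or without the sham pair, so Reg3g lost its call in each. Spp1, the matricellular cytokine osteopontin, was the looked-up gene with the widest gap in changes: 6.86 to 9.50 in non-diabetic and 10.44 to 8.55 in diabetic rats, changes of 2.64 and -1.89. It did not pass the test of the difference, and its mean change over both pairs was 0.38 ± 1.24.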

How the data were processed

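The values were probe set intensities from Affymetrix rat arrays, which the authors computed by PLIER (probe logarithmic intensity error), with Expression Console, per the submitters' processing notes. Their scaling and background correction, and the software versions, were not found in those notes or the labels. Each array was hybridised with RNA pooled from 3 rats. Probe sets were named through the platform's annotation (20826 with 1 symbol, 436 with several, 9780 with none), and the probe set of highest mean stood for its gene. The 57 control probe sets were left out. An offset of 16 was added before log2, and probe sets below the 40th percentile of mean level were dropped. A limma fit (version 3.58.1, R 4.3.3) with a term for each of 6 time points and 1 for diabetes, a mean-variance trend and 5 residual degrees of freedom gave the change from day 1 to day 7, adjusted by Benjamini-Hochberg over 18625 probe sets. The script was tested on simulated data.

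Named genes were, among those called with 1 direction in both conditions, the 12 that rose most and the 12 that fell most, up to 4 called members of each list, and a fixed set of looked-up genes. Members and lists were chosen with earlier results of these data known. Genes named outside that rule were chosen after their values were seen: in the lists Ccl7, Cxcl9, Cxcl10, Camp, Np4, Nop56, Hspb1, RT1-Ba, Mx1, Isg15, Ifitm1, Fcgr3a, Fbln1, Angptl4, the division genes with small changes, and, from the fit without a filter, Cxcl2, Bub1 and Cdkn3. The alternatives were other normalizations, offsets, filters, variance models and sets of arrays.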

Additional observations from a re-analysis of the deposited data

Results flagged for a closer look

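These results were picked out because the change from day 1 to day 7 differed between diabetic and non-diabetic rats in the second fit (limma, Benjamini-Hochberg). Each value is the diabetic minus the non-diabetic change in log2 units. Zdhhc5 had -8.94 ± 0.57 (adjusted p = 0.00047), a value set by 1 array of each condition at the floor of the scale: log2 levels on day 1 were 4.00 (non-diabetic) and 8.14 (diabetic), and on day 7 they were 8.80 and 4.00. Its size is set by the offset (-16.81 with an offset of 1 and -5.32 with 64) and is no measured fold. Reg3g had -3.87 ± 0.41 (adjusted p = 0.025), with the diabetic day 1 array, at 8.40, the highest of the 12. It did not pass with quantile normalization, without a variance trend or without the sham pair, where Zdhhc5 was the only call. Probe sets without a gene symbol made up the rest. Their differences were -6.06 ± 0.67 (adjusted p = 0.025), -3.28 ± 0.41 (adjusted p = 0.046) and 4.88 ± 0.58 (adjusted p = 0.036). Where the difference was negative, the diabetic day 1 and non-diabetic day 7 arrays were the high ones, as in Zdhhc5, and where it was positive they were the low ones. Each rests on single arrays, and a cause was not tested.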

How the results depend on the processing

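Against 93 called probe sets (75 higher, 18 lower), the counts under alternatives planned at the outset that moved by over 1.5 times were as follows; the cause was not tested unless stated. The 4 arrays alone gave 292 (244 higher, 48 lower), leaving out the day 28 pair 377 (300 and 77) and leaving out the day 56 pair 49 (40 and 9). Without a diabetes term there were 56 (45 and 11), with an offset of 1 also 56 (46 and 10), with an offset of 64 there were 149 (40 lower), without a filter 152 (125 higher) and with a filter at the 60th percentile 59 (48 and 11). Without a variance trend there were 60 (44 higher), with quantile normalization 44 higher, and with equal array medians 29 lower. Leaving out 1 of the 4 arrays at a time gave 18 to 123 calls (11 to 69 higher, 7 to 54 lower). The test of the difference between conditions called 5, and 11 with an offset of 1, 1 with quantile normalization or no variance trend, 1 if the sham pair was left out and 2 if the day 56 pair was. Of 1021 values of named genes under 19 alternatives, 831 kept direction and call, 160 lost the call, 25 gained it and 5 reversed. The reversals were Spp1 (-1.47 to 2.23 over the fits without 1 array), Nppa (-0.09 to 0.44) and Myh7 (-0.10 to 0.20, and -0.04 with equal array medians), none of which had passed. The 6 genes that passed without any 1 array (Ccl20, Ankrd2, Gal, Fosl1, LOC102552995 and Kcnv2) passed in every alternative that gave them a value, which was 17 of 19 for Ccl20 and Ankrd2, 18 for Fosl1 and Kcnv2 and 19 for the others. The fits without 1 array kept the probe sets of the main fit, so the array left out still counted in the filter. No paired analysis was possible because each condition and time point had 1 array and no replicate number to block on; the diabetes term compares the days within each condition. The number of arrays and of pools limits the precision, and low genes are compressed by the offset.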
